A study of Mus musculus with 36 samples.

Results

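Genes of the voltage-gated calcium and sodium channels were followed over 6 mouse brain regions and 2 genotypes. They were taken by symbol alone: Cacna, Cacnb or Cacng followed by a digit, or Scn followed by a number and the letter a or b. This gave 40 of the 19025 genes in the deposited gene table, 26 of calcium channels and 14 of sodium channels, and no measured value entered the choice. RNA-seq had been made from 36 libraries, 3 wild-type (WT) and 3 knock-in (KI) for each region of adult C57 mice of 6 to 7 weeks. The labels abbreviate the regions. To choose marker genes, HP was taken as hippocampus, PFc as prefrontal cortex, Nac as nucleus accumbens, STR as striatum, SN as substantia nigra and VTA as ventral tegmental area. The series title places a synonymous change in Maoa, the gene of monoamine oxidase A, and the labels call the mutant animals knock-in without giving the allele, zygosity, sex, line or number of founders. Nothing ties the libraries of a group to different animals, and a p-value here measures the spread between libraries, which may be technical. In tissue libraries of this kind, fewer cells of a type and less RNA per cell cannot be told apart.

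A voltage-gated channel is built around a large pore-forming subunit that opens when the membrane depolarises. Sodium channel pores (Scn1a, Scn2a, Scn3a and Scn8a in the brain) carry the rising phase of the action potential, and beta subunits such as Scn2b, Scn3b and Scn4b tune their gating and placement. Calcium channel pores fall into the L-type Cav1 group (Cacna1c, Cacna1d), the presynaptic Cav2 group (Cacna1a, Cacna1b, Cacna1e) and the low-threshold Cav3 group (Cacna1g, Cacna1h, Cacna1i), which shapes burst firing. The alpha2delta (Cacna2d) and beta (Cacnb) subunits bring these pores to the membrane, and most brain members of the Cacng family are better known as partners of AMPA glutamate receptors.

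Total estimated counts were 15145631 to 18863503 per library, with a mean of 17879355 in WT and 16411870 in KI. In 8 libraries the marker genes of the labelled region were low: 2 of WT (WT Nac 2, WT VTA 3) and 6 of KI (KI HP 2, KI Nac 1, KI Nac 2, KI SN 1, KI SN 2, KI STR 3). KI HP 2, KI SN 2 and WT VTA 3 had striatal marker scores (mean log2 (CPM + 1), where CPM is the count scaled to the library's total) of 8.76, 8.77 and 8.20, where WT STR libraries had 7.14 to 8.79. The dopamine transporter gene Slc6a3 stood at 0.579 CPM in WT VTA 3, against 592 and 238 CPM in WT VTA 1 and 2. KI PFc 1 had a cortical score of 5.75, below the 6.27 to 6.45 of the other PFc libraries, and a striatal score of 7.16, where they had 4.62 to 5.38. The 8 are called the libraries that stand apart, and results that rest on them are given with and without them; KI PFc 1 is left out separately.

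Per length, beta subunits were among the most abundant members. Cacnb3, a calcium channel beta subunit, had a median level over the 36 libraries of 154 TPM (a count per transcript length, scaled to the library), with a range of 43.9 to 420. Scn2b had a median of 136 TPM. Among pores Scn2a led with a median of 35.0 TPM, followed by Scn8a with 32.3, Cacna1e with 21.3, Scn1a with 18.6 and Cacna1a with 18.2. Scn4b spanned the widest range among the 10 most abundant members, from 1.93 to 413 TPM. At the other end, 6 members never reached 2 CPM in any library: Cacng6, Cacng1, Scn11a, Cacna1f, Scn10a and Scn4a, the last of which had 0 counts in 21 libraries. Scn10a and Scn11a are known for peripheral sensory neurons, Scn4a and Cacng1 for skeletal muscle, and Cacna1f for the retina.

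**Figure D1:**
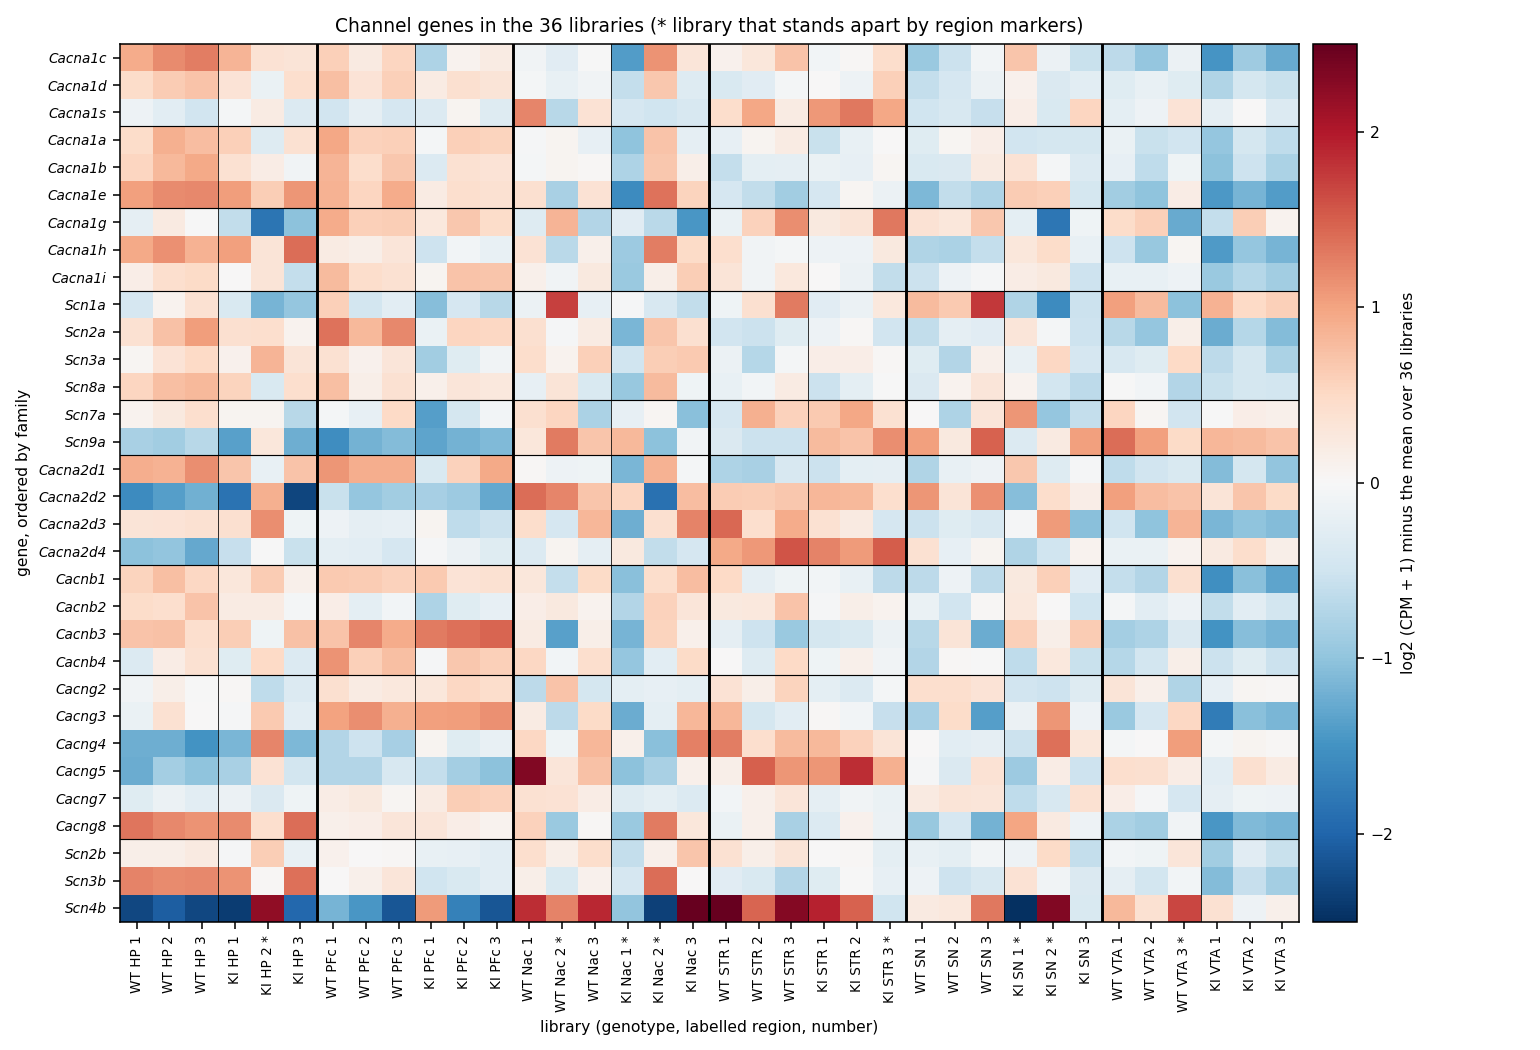
Heat map of 32 channel genes, ordered by family, in the 36 libraries, as log2 (CPM + 1) minus the gene's mean over all libraries. The Scn4b line is dark blue in the 3 WT HP libraries and dark red in KI HP 2 and KI SN 2, whose names carry an asterisk as libraries that stand apart.

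The bases just before the start of 4 genes are shown because these genes recur in the results below. They are Scn4b for the regions, beside its neighbour Scn2b, and Scn1a and Cacna1i for the genotypes. Scn1a and Cacna1i were the members with the smallest p in the sums and in VTA. No test below uses the bases. Each window is the 250 bases upstream of the start in RefSeq (build GRCm38.p6), written 5′ to 3′ on the gene's strand with every CG dinucleotide in capitals. The genes span chr2:66270781-66440837 (Scn1a), chr9:45117876-45130070 (Scn2b), chr9:45138624-45154155 (Scn4b) and chr15:80287238-80398292 (Cacna1i). Scn1a lies on the minus strand (window chr2:66440838-66441087), and the others on the plus strand (Scn2b chr9:45117626-45117875, Scn4b chr9:45138374-45138623, Cacna1i chr15:80286988-80287237).
Scn1a: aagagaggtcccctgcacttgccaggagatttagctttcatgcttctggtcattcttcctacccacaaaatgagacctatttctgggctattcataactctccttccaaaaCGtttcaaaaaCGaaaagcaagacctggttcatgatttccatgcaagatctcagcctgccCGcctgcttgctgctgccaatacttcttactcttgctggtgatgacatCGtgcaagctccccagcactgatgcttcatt
Scn2b: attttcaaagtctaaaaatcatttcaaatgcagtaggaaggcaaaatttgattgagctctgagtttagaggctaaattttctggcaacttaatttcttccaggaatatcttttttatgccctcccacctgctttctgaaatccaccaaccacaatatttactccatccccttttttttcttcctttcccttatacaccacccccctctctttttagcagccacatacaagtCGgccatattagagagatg
Scn4b: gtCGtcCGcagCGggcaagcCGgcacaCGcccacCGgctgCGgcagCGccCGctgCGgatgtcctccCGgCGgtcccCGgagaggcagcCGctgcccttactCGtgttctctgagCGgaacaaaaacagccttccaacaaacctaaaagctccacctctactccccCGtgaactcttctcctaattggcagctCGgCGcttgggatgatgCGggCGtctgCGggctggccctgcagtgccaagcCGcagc
Cacna1i: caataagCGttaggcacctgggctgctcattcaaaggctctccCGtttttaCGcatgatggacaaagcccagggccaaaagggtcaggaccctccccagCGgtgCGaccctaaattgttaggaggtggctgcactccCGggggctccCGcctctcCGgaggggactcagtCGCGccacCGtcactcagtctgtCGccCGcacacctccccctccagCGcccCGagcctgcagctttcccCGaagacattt
The start of Scn4b lies 8554 bases beyond the end of Scn2b, yet their windows differ in base composition. The Scn4b window holds 23 CG dinucleotides, a number reached or passed by 13.3% of the 32851 promoter windows of the table, and that of Scn2b holds 1, which 92.1% reach or pass. Cacna1i has 16 (25.4%) and Scn1a has 4 (62.2%). A CCAAT box (CCAAT or its reverse complement ATTGG) was found in the windows of Scn1a and Scn4b and in 33.8% of all windows. Of the 41 windows that belong to 30 members, 10 (24.4%) held it.

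The share of Scn1a among the sodium channel pores was higher in the WT libraries of STR, SN and VTA than in those of HP, PFc and Nac; shares are described here without a test. Without the libraries that stand apart, Scn1a, the pore known for fast-spiking interneurons, made up 14.9% ± 1.5 of the TPM of the Nav pores in WT HP (SD, n = 3), 13.8% ± 3.0 in PFc and 17.5% ± 1.1 in Nac (n = 2). It made up 31.8% ± 8.4 in STR, 39.2% ± 7.2 in SN and 39.5% ± 0.9 in VTA (n = 2). The lowest library of STR, SN and VTA had 24.1% and the highest of HP, PFc and Nac had 18.3%, so these groups of regions did not overlap. Scn2a, a main pore of excitatory neurons, ran the other way, from 49.5% ± 2.9 in PFc and 39.7% ± 2.0 in HP to 18.5% ± 0.9 in VTA. Scn8a, the pore of mature axon initial segments, stayed between 25.9% in Nac and 38.2% in HP. In KI the Scn1a share was 11.9% in HP, 12.6% in PFc, 19.8% in STR and 41.0% in VTA, and 21.0% in the single remaining SN library.

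Other families differed in make-up as well. Of the sodium channel beta subunits, Scn4b, known for the resurgent sodium current of fast-firing neurons, took 1.3% ± 0.1 in WT HP and 2.9% ± 0.7 in PFc but 27.1% ± 0.5 in Nac and 28.0% ± 11.2 in STR. Cacna2d2 made up 5.0% ± 0.5 of alpha2delta TPM in WT HP and 39.0% ± 1.2 in VTA, while Cacna2d1, a gabapentin-binding subunit, made up 54.4% ± 1.6 and 31.1% ± 6.0. Cacng8 held 38.2% ± 3.5 of the Cacng family in WT HP and 10.4% ± 1.4 in SN. Among calcium channel pores Cacna1e, the R-type pore, took 23.5% ± 0.8 in WT HP and 11.7% ± 0.1 in VTA, and the T-type pore Cacna1g took 6.7% ± 0.6 and 21.5% ± 3.2.

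**Figure D2:**
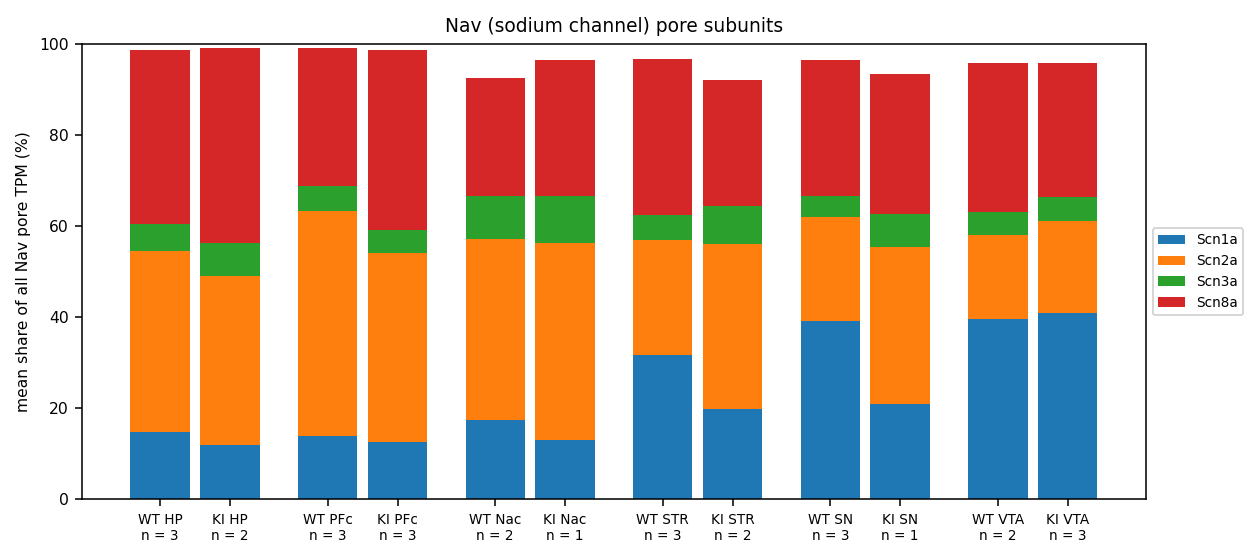
Stacked bars of the mean share of the TPM of all Nav pores (%) held by Scn1a, Scn2a, Scn3a and Scn8a, by genotype and region, without the libraries that stand apart; the part above a bar belongs to other Nav pores, and n is the number of libraries. The Scn1a share is 14.9% in WT HP and 39.5% in WT VTA.

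Regional differences among WT libraries were tested with edgeR's quasi-likelihood test, and a gene was called at a Benjamini-Hochberg adjusted p under 0.05 over all genes. The F test over the 6 regions called 28 of the 36 members that passed the count filter, where 48% of all genes tested were called. Among the 8 not called were Scn1a, Scn3a, Scn7a, Cacna1g, Cacna2d3, Cacng2 and Cacng3. Without WT Nac 2 and WT VTA 3 the test called 34 of 36, against 70% of all genes, and left out Scn1a (adjusted p = 0.0618) and Scn7a. The level of Scn1a therefore did not pass this test although its share of the family differed as described.

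HP stood out by most members: 25 were called there against the mean of the other 5 regions, 16 higher and 9 lower, where 34.4% of all genes were called (17.6% and 16.7%). Scn3b, a beta subunit, had 333, 318 and 325 CPM in the 3 WT HP libraries and 83.7 to 175 CPM in every other WT library. No other WT library came near the HP values, and the log2 fold change of HP over the rest was 1.49 (SE 0.12, adjusted p = 7.02e-07, edgeR's quasi-likelihood test). Cacng8 (1.62, SE 0.23), Cacna1e (1.45, SE 0.23), Cacna1c (1.31, SE 0.17), Cacna1h (1.26, SE 0.19) and Cacna2d1 (1.20, SE 0.12) were also higher in HP on the log2 scale. The L-type pore Cacna1c ran at 102, 121 and 130 CPM in HP and at 26.3 to 86.6 CPM elsewhere in WT. Its gene overlaps Dcp1b, and since the use of strand is not given, reads of overlapping genes cannot be told apart; this also touches Cacna1d, Cacna1h, Cacna2d3, Cacna2d4 and Cacnb1.

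The 9 members lower in HP included Scn4b and Cacna2d2. Scn4b had 26.1, 30.4 and 25.9 CPM in WT HP, 57.5, 46.9 and 28.6 in PFc, 470, 306 and 482 in Nac, and 1073, 358 and 643 in STR. The HP and PFc libraries lay below every library of the other regions, and the log2 fold change of HP over the rest was -3.01 (SE 0.41, adjusted p = 7.22e-05, edgeR's quasi-likelihood test). Cacna2d2, an alpha2delta subunit, had 18.1, 21.2 and 23.9 CPM in WT HP and 28.2 to 37.9 in PFc, against 70.8 to 149 elsewhere. The log2 fold change of HP over the rest was -1.87 (SE 0.19, adjusted p = 6.41e-06). Cacna2d4 (-1.86, SE 0.24) and the AMPA receptor partner Cacng4 (-1.44, SE 0.26) were lower in HP as well.

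PFc called 17 members, 13 higher and 4 lower, where 28.5% of all genes were called (16.1% and 12.4%). Scn2a had 376, 258 and 338 CPM in WT PFc, 192 to 303 in HP and 74.9 to 195 in the other regions, so that PFc overlapped HP but no other region. Its log2 fold change was 1.31 (SE 0.18, adjusted p = 0.000183, edgeR's quasi-likelihood test). Cacnb3 was higher by 1.31 (SE 0.28), Cacng3 by 1.19 (SE 0.34) and Cacnb4 by 0.95 (SE 0.21). Among those lower in PFc were Scn4b (-2.16, SE 0.39), Cacna2d2 (-1.12, SE 0.18) and Scn9a (-2.18, SE 0.35).

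In STR 11 members were called, 5 higher and 6 lower, where 20.7% of all genes were called (12.6% and 8.16%). Scn4b was higher by a log2 fold change of 2.43 (SE 0.28, adjusted p = 2.39e-05, edgeR's quasi-likelihood test). Cacna2d4, a subunit best known from photoreceptors, had 6.69, 7.51 and 10.9 CPM in WT STR and 0.636 to 4.23 in all other WT libraries, which it did not overlap. Its log2 fold change was 1.90 (SE 0.17, adjusted p = 2.82e-06). The STR libraries also carried choroid plexus markers, with a summed level of 11850 to 17464 CPM over 10 markers, whose part in the result was not tested. Cacna2d1 was lower there (-0.92, SE 0.14), with Scn2a, Scn3b, Cacna1b, Cacna1d and Cacna1e.

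Nac called 6 members, all higher, where 1.2% of all genes were called and 0.914% were higher. Without WT Nac 2 and WT VTA 3, 16 members were called, 12 higher and 4 lower, where 16% of all genes were called. Among them were Scn11a, Scn4b, Cacng5, Scn9a and Cacna2d2. Cacng5 had 95.2, 22.7 and 31.0 CPM in WT Nac, against 20.4 to 53.0 in STR and 7.12 to 24.7 in the other regions. WT Nac 1 alone stood above all other WT libraries.

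The midbrain regions were lower for most of the members called. SN called 12, of which 10 were lower, where 7.91% of all genes were called and 3.21% were lower, and VTA called 7, of which 5 were lower, where 7.61% of all genes were called and 3.16% were lower. Without WT Nac 2 and WT VTA 3, VTA called 20, of which 18 were lower, where 39.1% of all genes were called and 19.5% were lower, and SN called 18, of which 14 were lower, where 27.3% were called and 13.1% were lower. Cacna1a, the P/Q-type pore, was lower in VTA (log2 fold change -0.73, SE 0.13), as was Cacna1c (-0.89, SE 0.20). Cacna1e (-1.10, SE 0.27), Cacng8 (-1.05, SE 0.28) and Cacna1h (-0.98, SE 0.22) were lower in SN. Scn9a, a pore known from pain-sensing neurons, was higher in both, by 1.43 (SE 0.26) in SN and 1.46 (SE 0.26) in VTA. It had 8.17, 4.33 and 11.6 CPM in WT SN, 10.9, 8.19 and 5.27 in VTA, and no more than 2.53 in HP, PFc and STR. In WT Nac it had 4.52, 10.1 and 6.29. The 10.1 is that of WT Nac 2 and the 5.27 that of WT VTA 3, which both stand apart.

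The KI libraries gave a separate look at the same regional pattern, though they too include libraries that stand apart. With all 18 of them the F test called 13 of 35 members, against 12.6% of all genes, and without the 6 that stand apart 34 of 37, against 50.5%. Members called in WT without such libraries had the same direction in KI for 28 of 29 in HP, 22 of 23 in PFc, 14 of 16 in Nac, 13 of 14 in STR, 15 of 18 in SN and 20 of 20 in VTA. Of these, 19, 16, 9, 5, 1 and 20 were also called in KI, in that order. This agreement was counted for members only, so it cannot be set against that of all genes. With all libraries the direction was the same for 23 of 24 in HP, 17 of 17 in PFc, 4 of 5 in Nac, 9 of 11 in STR and 7 of 7 in VTA, but for 3 of 12 in SN, where KI SN 1 and KI SN 2 stand apart. None of the members called in WT HP, Nac or SN was then also called in KI, and 3, 2 and 3 were in PFc, STR and VTA. Nac and SN kept a single KI library each in this comparison, and its spread was taken to be that of the other groups. Scn1a was 1 of the 3 with opposite direction in SN, the others being Cacng2 and Cacna1s.

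Among 37 genes known to bind or place these channels the WT F test called 25 of 35, where it called 48% of all genes tested. Nrcam, a cell adhesion molecule of the axon initial segment, had 557 ± 38.9 CPM in WT HP and 596 ± 41.7 in PFc (SD, n = 3) and 260 ± 7.46 in VTA. Rims1 and Rimbp2, which tether Cav2 channels at release sites, were highest in PFc at 258 ± 32.5 and 162 ± 9.17 CPM and lowest in VTA at 79.7 ± 11.1 and 45.4 ± 4.64. Fgf13, a modulator of sodium channels, reached 217 ± 21.7 CPM in HP and 88.3 ± 5.38 in Nac. Tspan13 was highest in HP (315 ± 32.4 CPM), and the AMPA receptor partner Cnih3 stood at 75.1 ± 3.25 in HP, 78.7 ± 2.39 in PFc and 19.9 ± 6.09 in VTA.

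**Figure D3:**
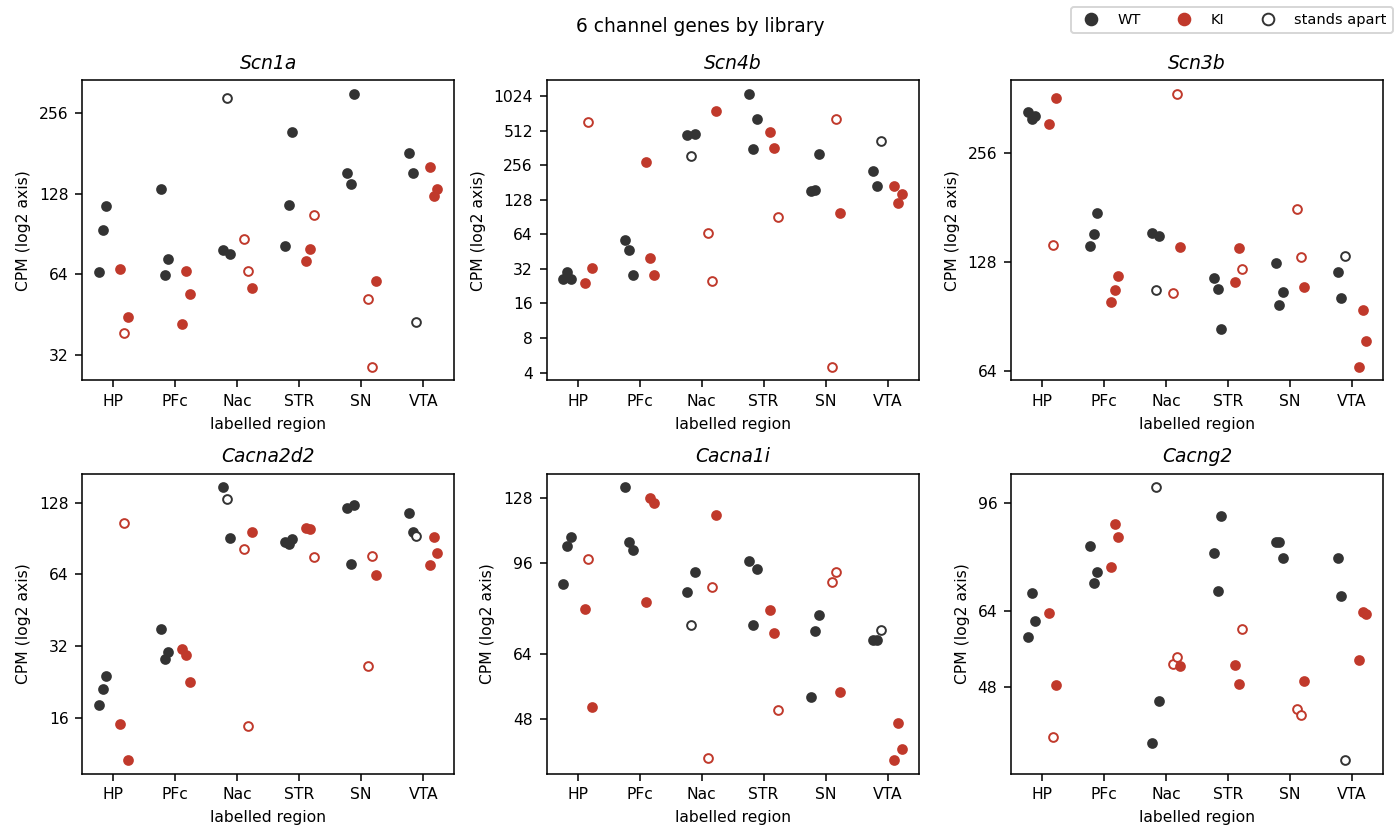
CPM (log2 axis) of 6 channel genes in every library by labelled region, with WT in black, KI in red and open circles for the libraries that stand apart. In SN the 3 KI values of Scn1a, 28.9 to 60.3, lie below the 3 WT values, 139 to 301, and in VTA the KI values of Cacna1i lie below all WT values.

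The second comparison asks how KI differs from WT. Maoa, the gene named in the title, was checked first: summed over regions it had 53.5, 58.9 and 52.6 CPM in WT and 64.0, 53.2 and 61.1 in KI, so the groups overlapped. Its log2 fold change was 0.13 (SE 0.08, adjusted p = 0.431, edgeR's quasi-likelihood test), and by region it ran from -0.36 in SN to 0.46 in STR with no call, the groups not overlapping in HP, STR and VTA, where KI was higher. Without the libraries that stand apart and KI PFc 1, Maoa was higher in KI in every region, by 0.07 to 0.41. With region as a term and without the libraries that stand apart, it was called (0.18, adjusted p = 0.0100, edgeR's quasi-likelihood test). That fit counts same-numbered libraries as independent. A synonymous change need not alter the Maoa level, so this level does not check the labels. With all libraries, no gene was called between genotypes by edgeR's quasi-likelihood test in any region, in the sums or for genotype by region (0% of genes in each). The mean was lower in KI for 22 of 35 members in HP, where it was lower for 49.8% of all genes, for 22 of 35 in PFc (46.6%), 13 of 34 in Nac (46.4%), 17 of 35 in STR (48.9%), 11 of 34 in SN (48.3%) and 26 of 38 in the sums (50.8%). Without the libraries that stand apart the mean was lower for 20 of 35 in STR and 19 of 35 in SN. The members' median log2 fold change turned from 0.03 to -0.13 in STR and from 0.34 to -0.07 in SN. Over all genes the median was then -0.005 in STR and -0.011 in SN. The share of all genes with a lower mean was not counted in these fits. The counts below are of unadjusted p under 0.05, of groups that do not overlap, and of calls by DESeq2.

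Scn1a was the member with the smallest p in the sums over regions. Summed by library number, it had 115, 142 and 138 CPM in WT and 79.6, 67.3 and 75.4 in KI, without overlap. Its log2 fold change was -0.81 (SE 0.10, unadjusted p = 5.95e-05, adjusted p = 0.0543, edgeR's quasi-likelihood test), just outside the threshold, and DESeq2 gave an adjusted p of 6.25e-10. With region as a term over all 36 libraries, the fold change of -0.83 was called (adjusted p = 0.0142, where 9.32% of genes were called), and without the libraries that stand apart it was -0.69 (adjusted p = 0.0065). That fit counts all libraries as independent, though same-numbered libraries may share an animal, so its p-values may be too small. The log2 fold change of Scn1a was also followed by region. Scn1a was lower in KI in 5 of 6 regions, and in 6 of 6 without the libraries that stand apart and KI PFc 1, when its log2 fold change ran from -1.63 in SN to -0.22 in VTA.

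Across the sums 8 of 38 members had an unadjusted p under 0.05, 2 higher and 6 lower, where 19.9% of all genes had one (9.34% higher, 10.5% lower); the groups did not overlap for the same number of members, against 11.9% and 14.4% of all genes. Scn8a (-0.22, SE 0.07), Cacna1g (-0.39, SE 0.11), Cacng2, the AMPA receptor partner stargazin (-0.27, SE 0.07), Cacna1a (-0.28, SE 0.10) and Cacna2d2 (-0.35, SE 0.12) were lower with Scn1a, each without overlap. Cacnb3 (0.25, SE 0.09) and Cacng8 (0.17, SE 0.07) were higher. DESeq2 called Scn1a, Scn8a, Cacna1g and Cacng2, where it called 8.87% of all genes. With region as a term and without the libraries that stand apart, edgeR's quasi-likelihood test called 7 members, Scn1a, Cacna1g, Cacna1a, Cacnb2, Scn2b and Scn8a lower and Cacng4 higher, where 17.2% of genes were called. DESeq2 called 8 members and 20% of genes. Both fits count same-numbered libraries as independent. In the same sums the 14 oligodendrocyte markers reached 15443 to 23402 CPM in KI and 12423 to 13088 in WT (5 above every WT sum, 1 below). The 10 neuron markers reached 7772 to 8535 CPM in KI and 8806 to 9800 in WT (4 below). Pericyte markers summed to 287 to 305 CPM in KI and 218 to 227 in WT (8 of 9 above). Microglia markers summed to 694 to 808 CPM in KI and 553 to 647 in WT (7 of 11 above). For astrocyte markers the sums were 6389 to 7365 and 5029 to 5631 (1 of 10 above). For thalamic markers they were 379 to 416 and 434 to 558 (2 of 10 below, 1 above). No marker of these lists was at 0 throughout, and their part in the result was not tested.

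In SN the difference in Scn1a was the largest of any region. The WT libraries had 153, 139 and 301 CPM and the KI libraries 51.7, 28.9 and 60.3, without overlap (log2 fold change -1.99, SE 0.38, unadjusted p = 0.000914, adjusted p = 0.122, edgeR's quasi-likelihood test). KI SN 1 and KI SN 2 stand apart, and KI SN 3 alone gave -1.63. KI SN 3 also differed from WT SN in other marker lists. Its striatal score was 6.18, where WT SN libraries had 4.63 to 4.65, and 13 of 14 striatal markers were above every WT SN library. So were 9 of 13 hippocampal markers, with 1 below, and 8 of 10 choroid markers, while 8 of 10 neuron markers were below and 1 above. In all, 8 of 34 members had an unadjusted p under 0.05, 6 higher and 2 lower, where 17.6% of all genes had one (9.35% higher, 8.21% lower); the groups did not overlap for 4 higher and 4 lower members, against 11.3% and 12.9% of all genes. Cacna1e (1.27, SE 0.31), Cacna1h (1.03, SE 0.20) and Cacng8 (1.36, SE 0.33) were higher and Cacng2 (-0.76, SE 0.14) lower. With KI SN 3 alone the log2 fold changes were 0.46 for Cacna1e, 0.60 for Cacna1h, 0.77 for Cacng8 and -0.66 for Cacng2. The median over members went from 0.34 with all libraries to -0.07, with 19 of 35 members lower. DESeq2 called these 4 and Scn1a, where 6.24% of all genes were called, but only Scn1a (-1.63, adjusted p = 0.0148) without the libraries that stand apart, where 1.4% of all genes were called. The hindbrain and cerebellar marker list was lower in KI SN (7.93 to 89.6 CPM summed, against 277 to 432 in WT, 9 of 11 markers without overlap). Thalamic markers were lower too (95.5 to 343 CPM summed, against 384 to 774, 4 of 10 without overlap), and 10 of 14 oligodendrocyte markers were below WT, with sums that overlapped (2849 to 26230 CPM against 17306 to 20607). Hippocampal markers were higher (335 to 1051 CPM summed, against 220.4 to 236, 5 of 13 without overlap), and striatal markers spanned 685 to 9377 CPM against 628 to 735, with 5 of 14 above WT. No marker of these lists was at 0 throughout, and their part in the result was not tested.

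VTA held the widest shift among the members, toward lower levels in KI. Of 34 tested, 29 had a lower mean, where 51.1% of all genes did, with a median log2 fold change of -0.41 against -0.01 over all genes. An unadjusted p under 0.05 was reached by 14, all lower, where 13% of all genes reached it and 6.92% did so with a lower level. The groups did not overlap for 13 lower and 1 higher member, against 12.4% and 11% of all genes. Since WT VTA 3 stands apart, the members were also counted without it. Then 30 of 34 means were lower, and the median was -0.32, against -0.006 over all genes. At an unadjusted p under 0.05, 15 members were lower and 1 higher, where 28.5% of all genes had one. For this fit the shares of all genes by direction were not counted.

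Cacna1i, a T-type pore that supports rebound firing, had the smallest p among the members in VTA. It had 68.1, 68.0 and 71.2 CPM in WT VTA and 40.0, 47.0 and 41.9 in KI, and WT VTA 3 lay with the other WT libraries. The log2 fold change was -0.68 (SE 0.11, unadjusted p = 0.000584, adjusted p = 0.354, edgeR's quasi-likelihood test), and DESeq2 called it (adjusted p = 0.000842, where 1.45% of all genes were called). Without WT VTA 3, edgeR called Cacna1i (-0.63, adjusted p = 0.0239), the beta subunit Cacnb1 (-0.60, adjusted p = 0.0438) and Scn8a (-0.42, adjusted p = 0.0376), where 5.69% of all genes were called, and DESeq2 called 7 members and 13.2% of all genes. With all libraries, Scn3b (-0.58, SE 0.18), Scn2b (-0.61, SE 0.20), Cacnb3 (-0.58, SE 0.19) and Cacng3 (-1.19, SE 0.42) were lower without overlap at an unadjusted p under 0.05. Cacna2d4 (0.47, SE 0.23, unadjusted p = 0.078) was the member higher without overlap. Leaving out WT VTA 3 gave -0.45 for Scn3b, -0.43 for Scn2b, -0.38 for Cacnb3 and -0.63 for Cacng3. Cacng3 had 58.0 CPM in WT VTA 3, against 20.8 and 29.8 in WT VTA 1 and 2. Scn1a had 181, 153 and 42.5 CPM in WT and 161, 125 and 133 in KI, so that its mean was higher in KI only with WT VTA 3 in the fit.

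Markers of glia, pericytes and other regions moved with the VTA difference. The summed level of 14 oligodendrocyte markers was 28043 to 39371 CPM in KI VTA and 15398 to 20240 in WT, with 9 of 14 above every WT library. The 10 astrocyte markers summed to 5966 to 8193 CPM in KI and 4657 to 6192 in WT, with 7 of 10 above. The 10 neuron markers summed to 8460 to 8586 CPM in KI, and to 10204 and 10587 in WT VTA 1 and 2 but 6120 in WT VTA 3. Without WT VTA 3, 8 of 10 were lower in KI and 1 higher. Pericyte markers summed to 383 to 419 CPM in KI and 241 to 270.1 in WT (6 of 9 above). Striatal markers summed to 559 to 652 CPM in KI and 726 to 6222 in WT (6 of 14 below), and hippocampal markers to 171 to 197 and 214 to 722 (5 of 13 below, 1 above). No marker of these lists was at 0 in all VTA libraries, and their part in the lower channel levels was not tested.

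**Figure D4:**
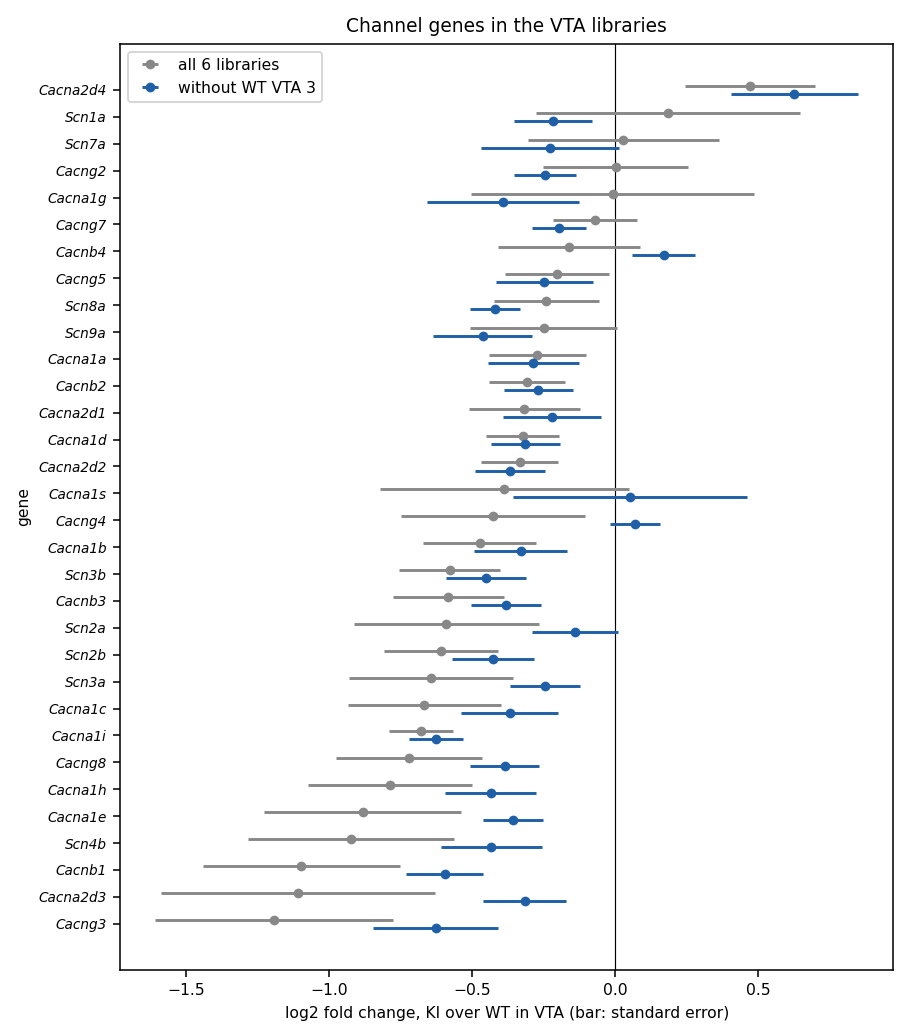
Log2 fold change of KI over WT in the VTA libraries for channel genes, with the standard error as a bar, from all 6 libraries (grey) and without WT VTA 3 (blue). Most grey points lie below 0, and Cacna1i lies at -0.68, or at -0.63 without WT VTA 3.

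In HP 8 of 35 members had an unadjusted p under 0.05, 3 higher and 5 lower, where 14.2% of all genes had one (8.52% higher, 5.71% lower); the groups did not overlap for 3 higher and 6 lower members, against 11.9% and 12.1% of all genes. The T-type pore Cacna1g had 40.0, 54.8 and 46.6 CPM in WT HP and 30.4, 12.4 and 22.6 in KI, without overlap. Its log2 fold change was -1.10 (SE 0.32, adjusted p = 0.304, edgeR's quasi-likelihood test), -0.80 without KI HP 2 (adjusted p = 0.0635), and DESeq2 called it as the only member (adjusted p = 0.0478, where 2.18% of all genes were called). Without KI HP 2 it called 6 members, all lower, Cacna1b, Cacna1c, Cacna1g, Cacna1i, Cacna2d2 and Scn1a, where 6.6% of all genes were called. With all libraries, Cacna1b, the N-type pore (-0.61, SE 0.16), and Cacna1c (-0.62, SE 0.18) were lower, without overlap. Cacna2d4 (1.28, SE 0.35), Cacng5 (0.87, SE 0.31) and Cacng4 (1.45, SE 0.65, unadjusted p = 0.0624) were higher, without overlap. Leaving out KI HP 2 gave -0.59 for Cacna1b, -0.51 for Cacna1c, 0.996 for Cacna2d4, 0.48 for Cacng5 and 0.22 for Cacng4. KI HP 2, with its striatal markers, had 126 CPM of Cacng4 and 605 of Scn4b, where the other KI HP libraries had 23.6 and 24.1 of Cacng4 and 24.2 and 32.5 of Scn4b. In KI HP 12 of 14 oligodendrocyte markers (9863 to 13449 CPM summed, against 4042 to 5114 in WT) and 10 of 11 microglia markers were above WT, 3 of 10 neuron markers were below, none was at 0, and their part was not tested.

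In PFc 8 of 35 members had an unadjusted p under 0.05, 3 higher and 5 lower, where 18.1% of all genes had one (9.69% higher, 8.39% lower); the groups did not overlap for 4 higher and 7 lower members, against 13.5% and 15.1% of all genes. Cacng4 had 31.9, 37.1 and 29.6 CPM in WT and 56.2, 43.0 and 46.9 in KI, without overlap. Its log2 fold change was 0.61 (SE 0.14, adjusted p = 0.208, edgeR's quasi-likelihood test), and DESeq2 called it (adjusted p = 0.0303, where 2.83% of all genes were called). Cacnb3 (0.46, SE 0.16) was higher, and Scn2a (-0.75, SE 0.24), Scn3b (-0.48, SE 0.14) and Cacna1h (-0.43, SE 0.15) lower, without overlap. Without KI PFc 1, whose striatal markers were high, edgeR called Cacng7 (0.51, adjusted p = 0.0384), and the fold change of Cacng4 was 0.52 (adjusted p = 0.0516); DESeq2 then called 6 members and 12.4% of all genes. Of 11 microglia markers, 10 were higher in KI PFc (829 to 959 CPM summed, against 478 to 687), and their part was not tested.

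In STR 10 of 35 members had an unadjusted p under 0.05, 3 higher and 7 lower, where 10.8% of all genes had one (6.16% higher, 4.62% lower); the groups did not overlap for 4 higher and 6 lower members, against 8.9% and 8.65% of all genes. Scn9a, low in WT STR at 2.53, 2.12 and 2.12 CPM, stood at 6.82, 6.38 and 9.15 in KI. The groups were far apart (log2 fold change 1.69, SE 0.24, unadjusted p = 9.86e-05, adjusted p = 0.251, edgeR's quasi-likelihood test), 1.51 without KI STR 3, and DESeq2 called it (adjusted p = 1.76e-05, where 1.38% of all genes were called). DESeq2 also called Cacng2, which had 79.6, 68.8 and 91.6 CPM in WT and 52.2, 48.5 and 59.7 in KI (-0.62, adjusted p = 0.0325). Without KI STR 3 it called 3 members, both of these among them, and 1.39% of all genes. Cacna2d3 (-0.93, SE 0.30) and Scn2b (-0.38, SE 0.13) were lower without overlap. Oligodendrocyte markers summed to 21312 to 29531 CPM in KI STR and 15174 to 17902 in WT (4 of 14 above, 1 below). Choroid markers summed to 3948 to 11534 CPM in KI and 11850 to 17464 in WT (1 of 10 below). No marker of either list was at 0 throughout, and their part was not tested.

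In Nac 2 of 34 members had an unadjusted p under 0.05, both lower, where 1.02% of all genes had one and 0.502% were lower (2.04% of all genes were lower without overlap). They were Cacng5 (-1.85, SE 0.64) and Cacng7 (-0.52, SE 0.17), neither called by edgeR's quasi-likelihood test or by DESeq2, which called no member and 0.0112% of all genes. Cacng7 had 152, 150 and 133 CPM in WT Nac and 93.4, 98.3 and 91.4 in KI, without overlap. KI Nac 1 and KI Nac 2 stand apart with dopamine and hippocampal markers, and KI Nac 3 alone remains of KI without them. Without these and WT Nac 2, 9 members were higher and 3 lower of 36 at an unadjusted p under 0.05, where 10.2% of all genes had one. Striatal markers were then at 9174 CPM summed in KI Nac 3 and 5969 to 6205 in WT, 13 of 14 above WT, and their part was not tested. Cacng7 was then at -0.53 (unadjusted p = 0.0226) and Cacng5 at -1.55 (unadjusted p = 0.119), edgeR called no member, and DESeq2 called Cacna2d3 (0.70) and Scn4b (0.79), both higher, where it called 3.98% of all genes.

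**Figure D5:**
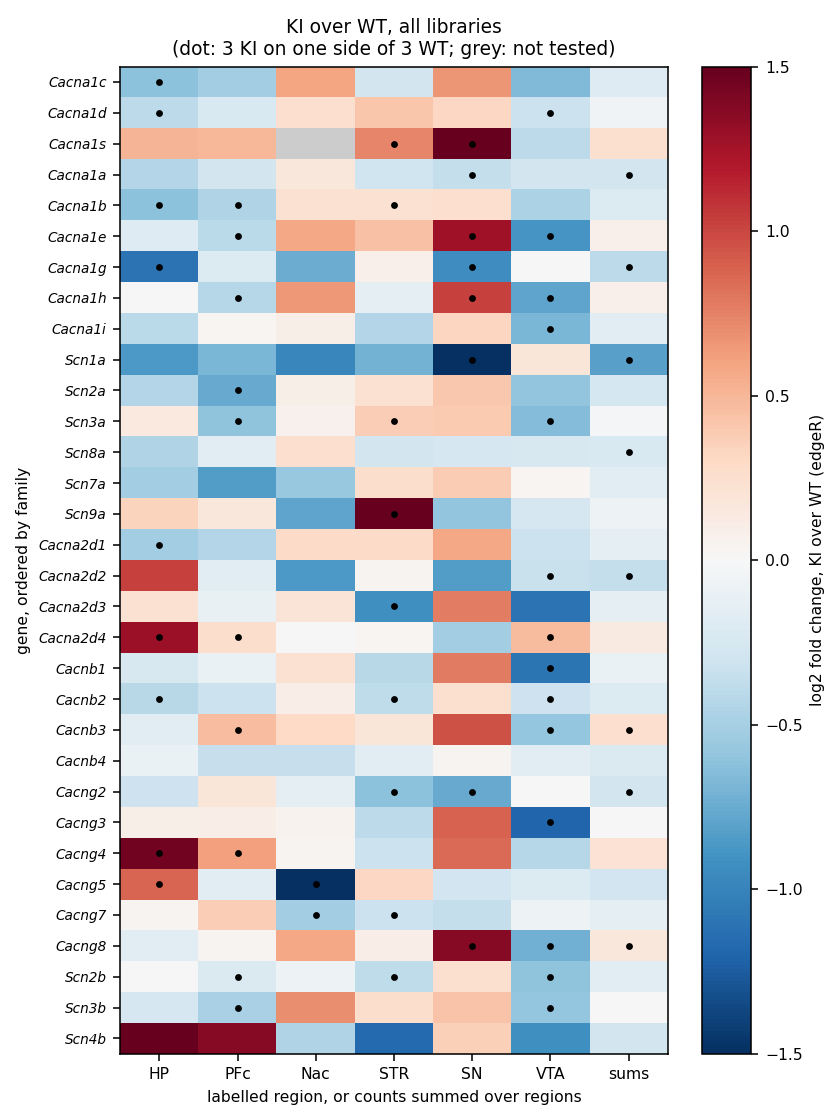
Log2 fold change of KI over WT (colour) for 32 channel genes in each region and in the sums over regions, with a dot where the KI and WT values do not overlap. Scn1a is blue in every column but VTA, and the VTA column is mostly blue.

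Whether the genotype difference changes with the region was tested in a fit of 12 groups. No member was called by edgeR's quasi-likelihood test (smallest adjusted p = 0.563) or by DESeq2, and 10 of 36 had an unadjusted p under 0.05, where 8.73% of all genes had one. The smallest were those of Cacng5 (0.00528), Cacna1s (0.00658) and Cacna2d4 (0.00989). The difference in the genotype effect was also tested for each pair of regions. With all libraries no pair gave a call for a member. Without the libraries that stand apart, PFc minus STR was called for Cacng2 (0.89, SE 0.18, adjusted p = 0.0253) and Cacng7 (0.69, SE 0.17, adjusted p = 0.0482), where 1.23% of all genes were called. With all libraries the values were 0.79 and 0.68.

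With all libraries partner genes gave no call between genotypes by edgeR's quasi-likelihood test, and DESeq2 called 5 of 37 in the sums, where it called 8.87% of all genes. In the authors' deposited table, the members with a q-value under 0.05 between genotypes were Cacng4 in PFc, Cacng2 and Scn9a in STR, Cacna1e, Cacna1h, Cacng2, Cacng8 and Scn1a in SN, and Cacna1i in VTA. DESeq2 called each of these here, and Cacna1g in HP besides. The authors' q-values are also from DESeq2, per the headers, and from the same libraries, so this match is not independent. In the authors' deposited table, the log2 fold change of Scn1a in SN was -1.99 with a q-value of 3.72e-05, and 5.22% of the genes with a q-value in that comparison were under 0.05. Between regions of WT, the authors' deposited table has 24 of 40 members under 0.05 for VTA against HP, where 25.8% of its genes are.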

How the data were processed

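RNA of 36 libraries had been made into sequencing libraries with a SMARTER mRNA-seq kit, per the labels' protocols. The authors deposited estimated counts and TPM per gene and transcript, and a table of their own comparisons with log2 fold changes, p-values and q-values, per the file headers. The genome was GRCm38.p6, per the submitters' processing notes; the aligner and the counting tool, and whether strand was used, were not given in the sources used here, so overlapping genes cannot be told apart. Of the estimated counts the authors deposited, 9.88% were not whole, and all were rounded. Another 180 per-sample columns were not used.

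Genes passing filterByExpr were tested with edgeR 4.0.16 (quasi-likelihood, TMM, R 4.3.3), with Benjamini-Hochberg adjustment over all genes and a threshold of 0.05. DESeq2 1.42.0, other scalings, no filter, a replicate block and left-out libraries were alternatives. The scripts were tested on simulated data. Depth was 15145631 to 18863503 counts per library, and replicates differed by more than sampling noise (chi-square per gene 6.51 or more, where 1 is expected of repeated sequencing of a single library). Members were named by rule: for regions the 12 called with the largest fold change at a mean log2 CPM of at least 1, plus 1 per family left out, and between genotypes the 3 higher and 3 lower without overlap with the smallest p, every call, and Maoa; partner genes were the 6 with the smallest p. Others named beside a count were chosen after their values were seen. Members and lists were chosen with earlier results of these data known. Libraries that stand apart were set from marker scores after the data were seen. Some members are not reported here.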

Additional observations from a re-analysis of the deposited data

Results flagged for a closer look

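The genotype difference of some auxiliary subunit genes was not the same in PFc and STR when the libraries that stand apart were left out. The difference in PFc minus that in STR, on the log2 scale, was 0.89 for Cacng2 (SE 0.18, adjusted p = 0.0253, edgeR's quasi-likelihood test) and 0.69 for Cacng7 (SE 0.17, adjusted p = 0.0482). Cacng2 had 81.6, 71.1 and 74.0 CPM in WT PFc and 75.6, 88.8 and 84.6 in KI, but 79.6, 68.8 and 91.6 in WT STR and 52.2, 48.5 and 59.7 in KI. The KI value of 59.7 is that of KI STR 3, which stands apart. With all libraries no gene passed for this pair, and the adjusted p of Cacng2 was 0.537.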

How the results depend on the processing

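Of 118 alternatives for the counts of members called, 93 kept the count within 1.5 times and 25 moved it. Of 456 for named genes, 418 left the gene's status, called or not called, as it was. A call was gained in 38, and 0 reversed the direction. The naming rule makes a reversal unlikely, as the genes named for genotypes had KI and WT values without overlap. A member not named by this rule could reverse: Cacna2d2 in HP ran from -0.68 to 1.48 on the log2 scale as single libraries were left out. Between genotypes the main fits called no gene, so an unchanged status there means that the gene stayed uncalled. Between genotypes edgeR called 0 members, and DESeq2 called 5 for SN, 4 for the sums, 2 for STR and 1 each for HP, PFc and VTA. Without the libraries that stand apart, DESeq2 called 7 for VTA (edgeR 3), 6 for HP, 3 for STR, 2 for Nac and 1 for SN. Without KI PFc 1, edgeR called 1 in PFc and DESeq2 6. For the sums, region as a term, which counts libraries as independent, gave 1, and without the libraries that stand apart 7 (DESeq2 8). Regions in KI gave 13 called, 22 with DESeq2 and 34 without those libraries. Leaving out each replicate in turn gave 0 to 0 in HP, Nac, STR, the sums and genotype by region, 0 to 1 in PFc (1 without KI PFc 1), 0 to 2 in SN (Cacna1e and Cacna1h without KI SN 3), 0 to 3 in VTA (3 without WT VTA 3), 15 to 26 for regions in WT (15 without replicate 1) and 0 to 11 for regions in KI (5 without replicate 2, 0 without replicate 3). Same-numbered WT and KI libraries correlated at -0.49 to 0.50 within regions, so the numbers were not taken as a pairing; with the replicate block 28 members were called for regions in WT, 11 in KI and 0 between genotypes. The causes were not tested. With 3 libraries a group, and 1 KI library left in Nac and SN, small differences were not detectable.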

Other observations

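The gene Cacnb2, whose protein is a beta subunit of calcium channels, differed in transcript make-up between HP and VTA. In the deposited transcript table, 1 of its 13 transcripts held a mean of 10.3% of the gene's TPM in WT HP (library range 0 to 24.0%) and 67.9% in VTA (62.2 to 73.5%), with 12.2% in PFc, 18.6% in Nac, 58.4% in SN and 44.7% in STR between them, without the libraries that stand apart. In KI the same transcript held 19.3% in HP and 62.9% in VTA. This gene was picked after its values were seen, no test was made, and transcript shares from estimated counts depend on how shared reads were split.

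Several genes had KI and WT values without overlap in opposite directions in a pair of regions, but none passed the test of the difference with all libraries. Cacna1e was higher in KI in SN (1.27 on the log2 scale) and lower in VTA (-0.88), a difference of 2.18 (SE 0.62, adjusted p = 0.105, edgeR's quasi-likelihood test). Cacng8 (difference 2.11) and Cacna1h (1.84) had the same signs. Without the libraries that stand apart the differences were 0.82 for Cacna1e (adjusted p = 0.526), 1.16 for Cacng8 and 1.04 for Cacna1h.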
